A study of Mus musculus with 4 samples.

Results

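The 35 genes described here encode the folding, transport and quality control machinery of the endoplasmic reticulum (ER) and the sensors of its stress response. They were taken by name from the 18560 genes of the deposited table, and all 35 were found there and passed the filter on low counts, as did 12816 genes in all. The table holds RNA-seq values for 4 libraries of mouse CD4+ T cells of the C57BL/6 strain, isolated from spleen and activated in culture with antibodies against CD3 and CD28 (Th0 cells, which are activated but not steered toward an effector type). The Setd2 knockout group had 2 libraries, replicates 9 and 12, whose genotype is labelled Setd2-CD4 cre, and the wild type group had 2, replicates 1 and 6. Setd2 encodes the enzyme that trimethylates histone H3 at lysine 36, and Cre under Cd4 control acts in developing T cells of both the CD4 and the CD8 lineage. The labels do not say whether the wild type cells carried Cre or a floxed allele, give no age, and do not say whether the replicates were separate animals, so p-values measure the spread between these libraries, which may be technical. The time of stimulation is not settled by the labels, since the titles carry the number 48, the treatment field gives 3 days and the series design gives 2 days.

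Proteins that enter the secretory pathway are threaded into the ER through the SEC61 translocon, folded there by chaperones such as BiP (encoded by Hspa5) and by protein disulfide isomerases, and retrieved for degradation in the cytosol when folding fails. When unfolded proteins accumulate, the sensors IRE1 alpha (Ern1), ATF6 (Atf6) and PERK (Eif2ak3) start the unfolded protein response. IRE1 alpha splices Xbp1 mRNA into the form that encodes an active transcription factor, ATF6 is cut to release another, and PERK lowers translation and favours ATF4. Activated T cells enlarge their secretory machinery as they grow and begin to make cytokines.

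Many genes of this response carry the ER stress element (ERSE), to which ATF6 and XBP1 bind together with NF-Y, in their promoters. RefSeq promoter sequences (build GRCm38.p6) were available for 29 of the 35 genes. The 250 bases before each start site were searched on both strands for the element, CCAAT and CCACG with any 9 bases between them. It was found in 9 of the 29 genes (31.0%), against 35 of all 27025 genes with a promoter entry (0.13%) and 17 of the 10244 of those that were tested here (0.166%). The other 20 had none. The elements are shown because the share of genes that hold one differs from that over all promoters. Each is written 5′ to 3′ on the strand that reads CCAAT first, with 5 flanking bases on each side and the element's fixed bases in capitals, and the coordinates are those of the element itself.
Hspa5, chr2:34772025-34772043, plus strand: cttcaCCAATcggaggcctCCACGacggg
Hsp90b1, distal, chr10:86705638-86705656, minus strand: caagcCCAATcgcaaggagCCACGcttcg
Hsp90b1, proximal, chr10:86705533-86705551, plus strand: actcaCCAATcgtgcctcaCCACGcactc
Creld2, chr15:88819520-88819538, minus strand: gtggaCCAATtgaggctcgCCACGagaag
Dnajc3, chr14:118937827-118937845, plus strand: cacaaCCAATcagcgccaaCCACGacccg
Pdia6, chr12:17266491-17266509, plus strand: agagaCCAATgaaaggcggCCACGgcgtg
Calr, chr8:84847075-84847093, plus strand: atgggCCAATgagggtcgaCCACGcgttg
Canx, chr11:50325800-50325818, minus strand: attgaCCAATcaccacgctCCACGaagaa
Syvn1, chr19:6046532-6046550, plus strand: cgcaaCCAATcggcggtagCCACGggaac
Derl3, chr10:75893242-75893260, minus strand: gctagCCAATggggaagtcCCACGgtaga

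A related element, ERSE-II (ATTGG and CCACG with any 1 base between them), was found in Herpud1, 1 of the 29 genes (3.45%), against 0.037% of all genes with a promoter entry. The third motif searched was TGACGTGG, a form of the XBP1 binding site known as the unfolded protein response element. It was found in Txndc5, again 1 of the 29 genes (3.45%), against 0.603% of all and 0.849% of those tested. The Txndc5 match lies within the span of the gene (chr13:38500266-38528824), before a start site inside that span. Both motifs are shown with the same flanks. None of the motifs overlapped another in these promoters, and a match to these letters does not show that a factor binds there.
Herpud1, chr8:94386377-94386387, plus strand: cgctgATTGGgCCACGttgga
Txndc5, chr13:38528045-38528052, minus strand: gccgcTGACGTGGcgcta

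Most of the 35 genes stood higher in the knockout libraries, but none passed the test. By edgeR's quasi-likelihood test with Benjamini-Hochberg adjustment over all genes, 0 of the 35 were called higher and 0 lower at an adjusted p under 0.05, where 0.0078% of all tested genes (1 gene) were called higher and 0% lower. At an unadjusted p under 0.05, 6 of the 35 were higher, against 6.23% of all genes, and 0 were lower, against 5.73%. DESeq2 called 1 of the 35 higher, the translocon gene Ssr1, against 0.753% of all genes with an adjusted p, and 0 lower, against 0.821%. The log2 fold change (knockout over wild type) was positive for 30 of the 35, against 49.8% of all genes, with a median of 0.44 against -0.00 over all genes. It ran from -0.92 for Ern1 to 1.06 for Pdia6. The median depended on single libraries, at 0.17 without knockout replicate 12, 0.24 without wild type replicate 6, 0.60 without knockout replicate 9 and 0.73 without wild type replicate 1. So did the number at an unadjusted edgeR p under 0.05 and higher, which was 2, 1, 13 and 17 in the same order of libraries left out. Over all genes the share higher at that p was 2.15%, 2.68%, 8.08% and 9.14% in the same fits. In 14 of the 35 the groups were apart with the knockout higher, against 25.4% of all genes, and in 0 they were apart with the knockout lower, against 24.3%. The groups overlapped in the other 21.

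**Figure D1:**
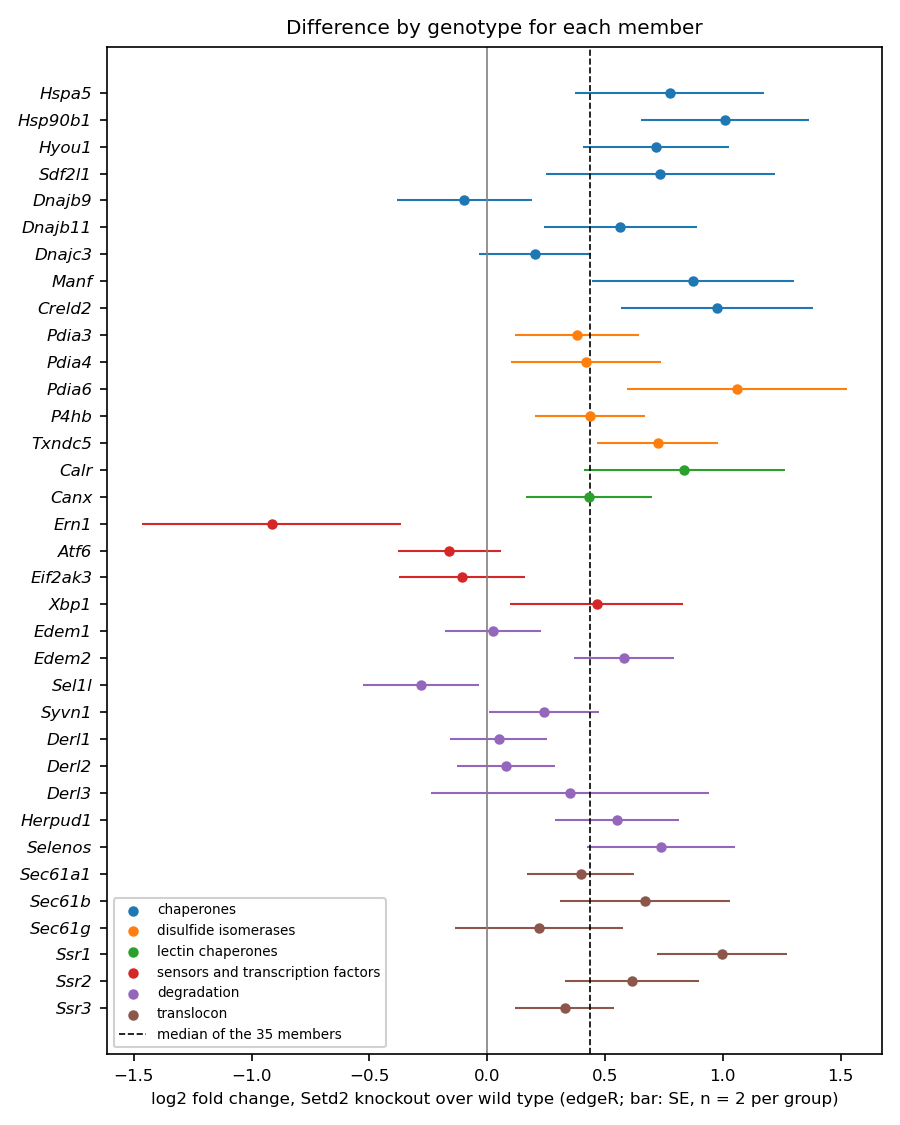
Log2 fold change of each of the 35 genes, Setd2 knockout over wild type, from edgeR on the x axis, with bars of 1 SE (n = 2 per group) and colours by role. The dashed line is their median of 0.44, and 3 of the 4 sensors and factors lie left of 0.

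The spread within each genotype was as large as the difference between them. Knockout replicate 12 was the highest library for 27 of the 35 genes (77.1%, against 35.4% of all genes), and wild type replicate 6 was the lowest for 25 (71.4%, against 33.1%). Both held together for 23 genes (65.7%, against 23.0% of all). The remaining pair of libraries, knockout replicate 9 and wild type replicate 1, were close to each other. Over the 35 genes the median log2 ratio of knockout replicate 9 over wild type replicate 1 was 0.04, with 19 of 35 positive. Knockout replicate 12 over wild type replicate 6 gave 0.90, with 30 of 35 positive. Between the 2 knockout libraries (replicate 12 over 9) the median was 0.45, and between the 2 wild type libraries (replicate 1 over 6) it was 0.46. The 2 remaining pairs across genotypes gave 0.51 (knockout 9 over wild type 6) and 0.46 (knockout 12 over wild type 1). Over all tested genes the median of each of the 6 ratios lay between -0.01 and 0.02.

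**Figure D2:**
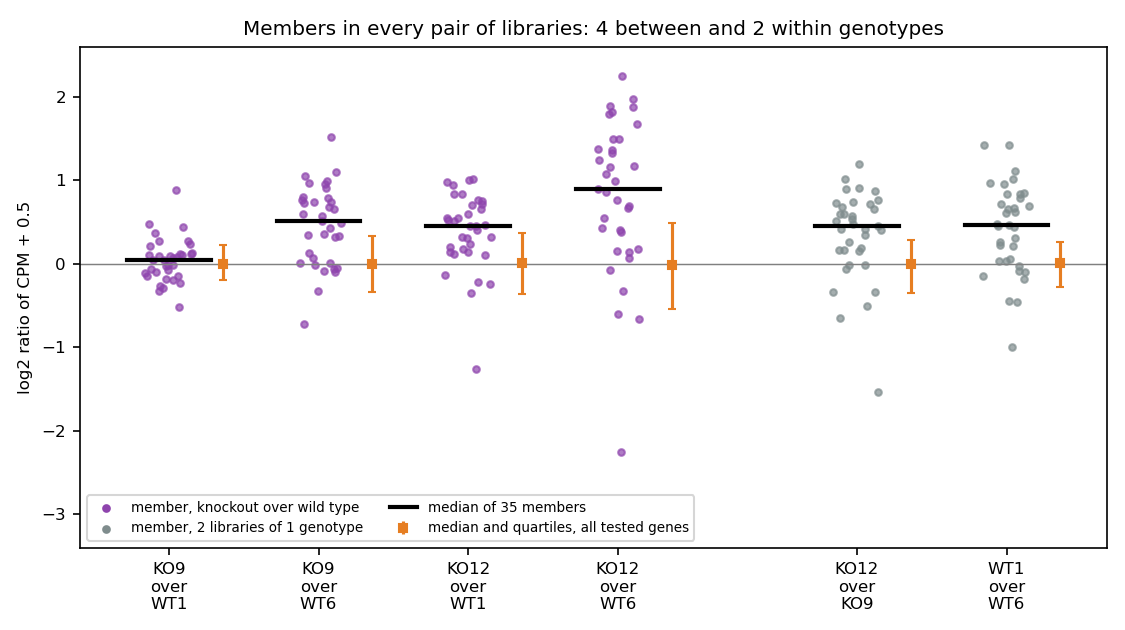
Log2 ratio of CPM + 0.5 for each of the 35 genes (points) in the 4 pairs of libraries across genotypes, knockout over wild type, and the 2 pairs within a genotype. Black bars are medians of the 35 genes and orange squares with bars the median and quartiles of all tested genes. The within-genotype medians are 0.45 and 0.46, and the 4 medians across genotypes are 0.04, 0.51, 0.46 and 0.90.

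The libraries held between 17284613 and 20418766 counts and detected between 15351 and 15890 genes. The same order of libraries was seen along the main principal component of all genes, which held 56.0% of the variance. It ran from wild type replicate 6 over wild type replicate 1 and knockout replicate 9 to knockout replicate 12. The next component held 23.5%. On it knockout replicate 9 and wild type replicate 1 (-26.9 and -24.4) lay apart from knockout replicate 12 and wild type replicate 6 (25.2 and 26.1). Setd2 itself stood at 127.2 and 112.9 CPM (counts scaled by library size and TMM factor) in knockout replicates 9 and 12, against 157.2 and 174.5 CPM in wild type replicates 1 and 6 (edgeR log2 -0.47, SE 0.21, adjusted p 0.421). A gene-level count adds reads from exons that a deletion leaves in place, so it does not check the genotype labels. Of 6 markers listed for CD4 T cells 5 were in the table, namely Cd3e, Cd3g, Cd4, Cd28 and Lck. Only Cd4 among them marks CD4 rather than CD8 T cells, so their sum does not separate these lineages. It was 1824 and 1650 CPM in knockout replicates 9 and 12, against 2042 and 2291 CPM in wild type replicates 1 and 6. Cd3e, Cd3g, Cd4 and Cd28 were each lower in both knockout libraries than in either wild type library and highest in wild type replicate 6, where most of the 35 genes were lowest. Cd3e and Cd28 were lowest in knockout replicate 12, and Lck had a log2 fold change of 0.02. Their log2 fold changes were -0.42 for Cd3e, -0.59 for Cd3g, -0.29 for Cd4 and -0.43 for Cd28, and none passed the adjusted edgeR test. The part of these markers in the results below was not tested. Log2 fold changes were lower for longer genes, with a median of 0.38 for genes under 1 kb of effective length and -0.47 for genes over 8 kb. Setd2 has an effective length of 8521 bases, so its log2 fold change of -0.47 was close to the median for genes of its length. The 35 genes had a median length of 2550 bases, near the 2831 of all tested genes, and with the length trend removed from each library their median log2 fold change was 0.39.

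Some B cell markers were, like most of the chaperones, highest in knockout replicate 12 and lowest in wild type replicate 6. Cd79a stood at 42.9 and 68.6 CPM in knockout replicates 9 and 12, against 45.6 and 31.7 CPM in wild type replicates 1 and 6. Cd79b had 34.2 and 70.8 CPM in the knockout libraries, against 42.1 and 29.4 CPM in wild type, and Ms4a1 had 24.9 and 44.9 CPM, against 41.8 and 18.3 CPM in wild type. Pax5 was not ordered this way, at 33.1 and 32.99 CPM in the knockout libraries, against 52.04 and 40.1 CPM in wild type. Mzb1, an ER co-chaperone of B lineage cells, stood at 12.1 and 62.5 CPM in the knockout libraries, against 27.7 and 17.1 CPM in wild type. The plasma cell gene Tnfrsf17 was at 0 in 3 libraries and at 0.0516 CPM in knockout replicate 12, and Jchain was at or below 5.61 CPM in each. The 6 plasma cell markers summed to between 567.5 and 702.2 CPM in each library, most of it from Irf4 and Prdm1, which activated T cells also express. The sums were at most 20.5 CPM in each library for markers of monocytes and macrophages, dendritic cells, NK cells, mast cells and basophils, and erythroid cells. CD8 T cell markers summed to 432.0 and 323.1 CPM in the knockout libraries, against 260.0 and 330.4 CPM in wild type. The part of any of these cells in the results below was not tested, and in bulk RNA fewer cells of a type and less RNA per cell cannot be told apart.

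**Figure D3:**
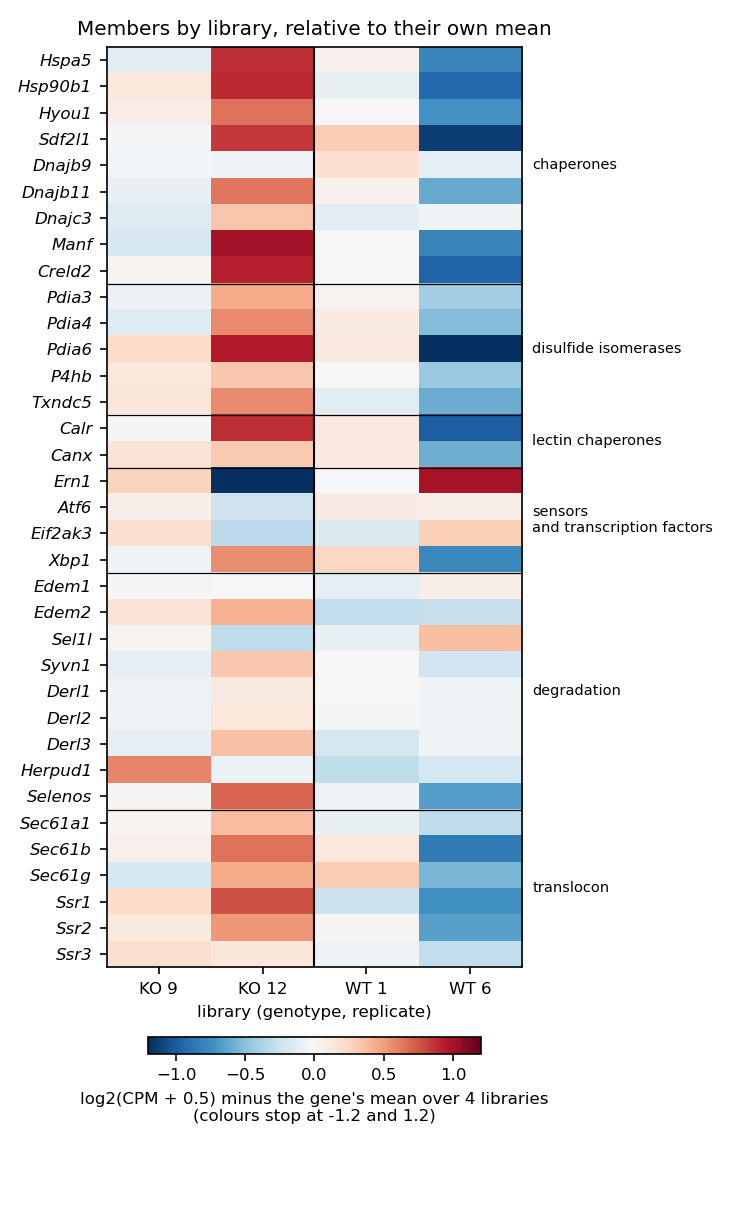
Level of each of the 35 genes (rows, grouped by role) in knockout replicates 9 and 12 and wild type replicates 1 and 6 (columns), as log2(CPM + 0.5) minus the mean of the gene over the 4 libraries. Most chaperone, isomerase and translocon rows are highest in knockout 12 and lowest in wild type 6, and Ern1 shows the reverse.

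Among the chaperones, 8 of 9 genes had a positive log2 fold change, with a median of 0.74, and 2 had an unadjusted p under 0.05 (22.2%, against 6.23% of all genes). Hspa5 encodes BiP, the HSP70 chaperone of the ER that also holds the stress sensors inactive. It stood at 397.1 and 805.3 CPM in knockout replicates 9 and 12, against 451.7 and 251.7 CPM in wild type replicates 1 and 6. Only knockout replicate 12 lay above both wild type libraries, and the groups overlapped (edgeR log2 0.77, SE 0.40, adjusted p 0.444). Hsp90b1, the HSP90 chaperone of the ER also known as GRP94, stood at 806.0 and 1371 CPM in knockout libraries, against 693.9 and 387.2 CPM in wild type. Both knockout values lay above both wild type values, a 2.01-fold difference in fitted level (log2 1.01, SE 0.36, edgeR adjusted p 0.413).

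Creld2, an ER protein with disulfide isomerase activity that is secreted under stress, had the other unadjusted p under 0.05 among the chaperones. Its levels were 33.3 and 62.5 CPM in knockout libraries, against 32.3 and 16.4 CPM in wild type (log2 0.98, SE 0.41, edgeR adjusted p 0.416). Knockout replicate 9 and wild type replicate 1 differed by about 1 CPM, and the larger gaps were to knockout replicate 12 and wild type replicate 6. Manf, a secreted protein that binds BiP, stood at 97.1 and 222.4 CPM against 110.6 and 63.7 CPM in wild type (log2 0.87, SE 0.43). Hyou1, the nucleotide exchange factor of BiP, stood at 175.4 and 261.9 CPM in knockout, against 165.6 and 100.5 CPM in wild type (log2 0.72, SE 0.31). Groups did not overlap for Hyou1 and overlapped for Manf, with edgeR adjusted p values of 0.417 for Hyou1 and 0.430 for Manf.

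The remaining chaperones included the BiP co-chaperones of the DnaJ family. Log2 fold changes were 0.74 for Sdf2l1 (SE 0.49), 0.57 for Dnajb11 (SE 0.32), 0.20 for Dnajc3 (SE 0.24) and -0.10 for Dnajb9 (SE 0.29), each with overlapping groups. Dnajb9, which encodes ERdj4, is a known target of spliced Xbp1 and was the chaperone of lowest level, at 9.57 and 9.50 CPM in knockout and 11.3 and 9.05 CPM in wild type libraries. Sdf2l1 stood between 17.4 CPM in wild type replicate 6 and 70.3 CPM in knockout replicate 12.

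All 5 protein disulfide isomerase genes and both lectin chaperone genes had positive log2 fold changes, and in each of the 7 knockout replicate 12 was highest and wild type replicate 6 lowest. Pdia6 stood at 229.8 and 381.0 CPM in knockout replicates 9 and 12, against 213.6 and 79.5 CPM in wild type replicates 1 and 6. Its difference was 2.08-fold in fitted level (log2 1.06, SE 0.47, edgeR adjusted p 0.417), and without wild type replicate 6, its lowest library, the log2 fold change was 0.51. Txndc5 had 89.7 and 120.3 CPM in knockout libraries, against 73.8 and 53.5 CPM in wild type (log2 0.72, SE 0.26, edgeR adjusted p 0.413). P4hb, the founding member of the isomerase family, had 502.0 and 572.7 CPM, against 458.4 and 336.1 CPM in wild type (log2 0.44, SE 0.23, edgeR adjusted p 0.448). In all of these 3 genes the groups did not overlap. Pdia3, which works with the lectin chaperones, and Pdia4 had log2 fold changes of 0.38 and 0.42, and their groups overlapped.

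Calr and Canx encode calreticulin and calnexin, which hold newly made glycoproteins until they fold. Calr stood at 719.7 and 1351 CPM in knockout libraries, against 792.8 and 366.4 CPM in wild type. Knockout replicate 9 lay below wild type replicate 1, and the difference did not pass (log2 0.84, SE 0.42, edgeR adjusted p 0.440). Canx varied less, at 439.6 and 489.5 CPM against 426.3 and 262.1 CPM in wild type, without overlap (log2 0.43, SE 0.27).

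**Figure D4:**
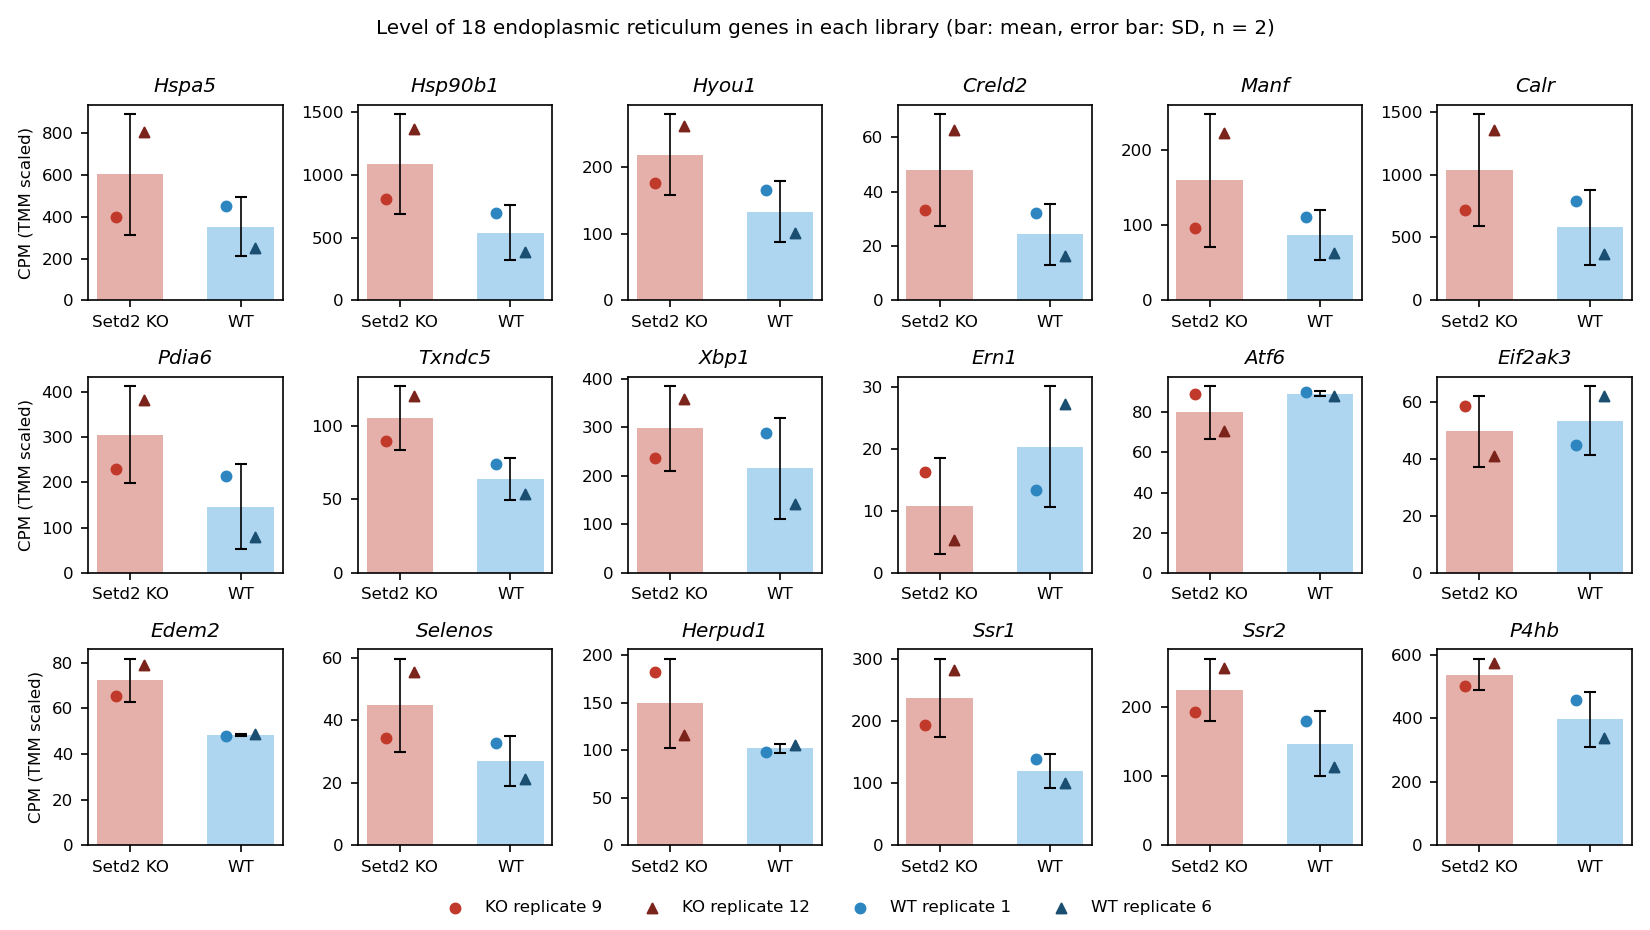
Level in CPM of the 18 genes given by library, with Setd2 knockout left of wild type in each panel. Bars are means, error bars the SD (n = 2), circles replicates 9 and 1 and triangles replicates 12 and 6. For Hspa5, Manf, Calr, Xbp1 and Atf6 the circle of the knockout lies below that of the wild type.

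The sensors did not follow the chaperones. Ern1 stood at 16.4 and 5.32 CPM in knockout replicates 9 and 12, against 13.5 and 27.3 CPM in wild type replicates 1 and 6 (log2 -0.92, SE 0.55, edgeR adjusted p 0.483). It was lowest in knockout replicate 12 and highest in wild type replicate 6, the reverse of the chaperone order. Eif2ak3 stood at 58.4 and 40.8 CPM in knockout, against 44.9 and 61.9 CPM in wild type, with the same reversed order at smaller size (log2 -0.11, SE 0.27). Atf6 stood at 89.1 and 70.7 CPM in knockout, against 90.2 and 88.3 CPM in wild type (log2 -0.16, SE 0.22). With the length trend removed the log2 fold changes of Eif2ak3 and Atf6 were 0.04 and 0.20, and that of Ern1 was -0.81.

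Xbp1 was ordered like the chaperones. Its levels were 236.3 and 359.2 CPM in knockout libraries, against 288.9 and 142.3 CPM in wild type (log2 0.47, SE 0.37, edgeR adjusted p 0.570). Knockout replicate 9 lay below wild type replicate 1. Gene-level counts do not separate spliced from unspliced Xbp1 mRNA, so the activity of IRE1 alpha was not measured.

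Of the 9 genes of ER-associated degradation, 8 had a positive log2 fold change, with a median of 0.24. Edem2, one of the mannosidase-like proteins that mark misfolded glycoproteins, stood at 65.7 and 79.0 CPM in knockout libraries, against 48.02 and 48.8 CPM in wild type (log2 0.58, SE 0.21, edgeR adjusted p 0.413). The 2 wild type libraries were nearly equal here, wild type replicate 6 was not the lowest, and both knockout libraries lay above them. Selenos, a membrane selenoprotein of the retrotranslocation complex, stood at 34.2 and 55.3 CPM, against 32.6 and 21.2 CPM in wild type (log2 0.74, SE 0.31, edgeR adjusted p 0.416). Herpud1, a stress-induced scaffold of the same complex, was highest in knockout replicate 9, at 182.5 and 115.9 CPM in knockout replicates 9 and 12 against 98.4 and 105.3 CPM in wild type (log2 0.55, SE 0.26, edgeR adjusted p 0.424). Of the 18 genes in the plot of levels it was the only one in which knockout replicate 9 stood above all other libraries.

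The core genes of the degradation machinery had log2 fold changes nearer to 0. The ubiquitin ligase gene Syvn1, which encodes HRD1, had a log2 fold change of 0.24 (SE 0.23) and its partner Sel1l one of -0.28 (SE 0.25). Edem1, which is a known XBP1 target, stood between 270.8 and 307.7 CPM in all 4 libraries (log2 0.02, SE 0.20). The derlin genes Derl1 and Derl2, which encode parts of the retrotranslocation channel, had log2 fold changes of 0.05 and 0.08, with SE of 0.21 each. Derl3 was close to the filter on low counts, at 1.45 and 2.17 CPM in knockout and 1.32 and 1.52 CPM in wild type libraries.

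All 6 translocon genes had positive log2 fold changes, with a median of 0.51, and in all 6 wild type replicate 6 was the lowest library. With the length trend removed their median was 0.33, and Sec61g had a log2 fold change of -0.14. Ssr1, the alpha subunit of the translocon-associated protein complex, had the smallest p of the 35 genes. It stood at 193.7 and 282.5 CPM in knockout replicates 9 and 12, against 139.0 and 99.8 CPM in wild type replicates 1 and 6. The groups were apart, with a mean of 238.1 ± 62.8 CPM against 119.4 ± 27.7 CPM (SD, n = 2 per group; log2 0.996, SE 0.28, edgeR adjusted p 0.368). DESeq2 gave an adjusted p of 0.041, and with any single library left out the edgeR log2 fold change stayed between 0.70 and 1.27 with adjusted p values from 0.0832 to 0.984. Ssr2, the beta subunit, stood at 193.0 and 256.5 CPM, against 180.0 and 113.3 CPM in wild type (log2 0.62, SE 0.28, edgeR adjusted p 0.423). The gamma subunit gene Ssr3 had a log2 fold change of 0.33 (SE 0.21). Of the channel subunits, Sec61a1 (log2 0.40) did not overlap between groups, and Sec61b (0.67) and Sec61g (0.22) did.

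Levels can be compared between genes only per length. On the authors' FPKM scale (fragments per kilobase, scaled to depth) Calr had the highest mean over the 4 libraries at 408.6 FPKM, followed by Hsp90b1 at 288.6 and Pdia3 at 205.3 FPKM. Calr ranged from 199.0 to 658.2 FPKM and Hsp90b1 from 147.3 to 467.5 FPKM across libraries, so these neighbours in the order overlap. Hspa5 (183.9 FPKM), P4hb (182.0 FPKM) and Ssr2 (171.8 FPKM) came next and did not differ beyond their spread. At the low end stood Derl2 at 9.40, Dnajb9 at 5.29, Ern1 at 3.96 and Derl3 at 1.37 FPKM. The 3 sensors had means from 3.96 to 12.2 FPKM, whereas Xbp1 had 112.7 FPKM.

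The share of each library's counts taken by these genes was computed without TMM scaling. All 35 took 0.661% and 0.901% of the counts in knockout replicates 9 and 12, against 0.644% and 0.463% in wild type replicates 1 and 6. The 9 chaperones took 0.173% and 0.292% in knockout, against 0.170% and 0.106% in wild type. The lectin chaperones took 0.116% and 0.175% in knockout, against 0.122% and 0.0663% in wild type. Degradation genes were the most even of the 6 roles, at 0.0896% and 0.0841% in knockout against 0.0773% and 0.0869% in wild type. For the whole set knockout replicate 9 and wild type replicate 1 were close, and each lay farther from the second library of its own genotype than from the other.

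The genes with an ERSE can be read separately, since the element was found without use of expression. All 9 had a positive log2 fold change, against 49.8% of all genes, with a median of 0.77 and a range from 0.20 (Dnajc3) to 1.06 (Pdia6). Knockout replicate 12 was the highest library for each of the 9. For Hspa5, Calr, Dnajc3 and Syvn1 knockout replicate 9 lay below wild type replicate 1, and for these and Derl3 the groups overlapped. None of the 9 is a sensor or transcription factor, so the sets compared here also differ in role. The 20 genes with a promoter entry and no such element had a median of 0.43, 16 of them positive. The 8 other tested genes with an ERSE had a median of -0.23, 3 of them positive. Those 8 include the ER genes Alg12 (0.01) and Ero1lb (-0.12), named here outside the naming rule because of their motif. They also include Acacb, Xlr3a and Xlr3b, which stood at 4.704 CPM or less in each library. Derl3, among the 9, stood at 2.17 CPM or less. These are descriptions of small sets and were not tested.

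Other genes of ER pathways had a median log2 fold change nearer to 0, a difference that was not tested. They came from 6 lists outside the 35 (further chaperones, oxidation enzymes, degradation, translocation, N-glycosylation and sensors). Some of these genes, such as Vcp, Eif2ak2 and the signal recognition particle subunits, encode cytosolic proteins, so the lists do not stand for the ER alone. Of them 114 genes were tested and 0 were called in either direction by edgeR or DESeq2. At an unadjusted edgeR p under 0.05, 4 were higher and 3 lower, against 6.23% and 5.73% of all genes. Their median log2 fold change was 0.15, with 83 of 114 positive (72.8%, against 49.8% of all genes). Knockout replicate 12 was highest and wild type replicate 6 lowest together for 54 of them (47.4%, against 23.0% of all genes). N-glycosylation genes had the highest median of the 6 lists, 0.34, and the oligosaccharyltransferase subunit Rpn1 stood at 243.3 and 330.9 CPM in knockout libraries, against 207.6 and 113.2 CPM in wild type (log2 0.84, SE 0.32, edgeR adjusted p 0.413).

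By the naming rule each further list gave its gene of smallest p. Srp14, a signal recognition particle subunit, had a log2 fold change of 0.65 (SE 0.23), Ube2g2, a ubiquitin-conjugating enzyme of ER degradation, 0.56 (SE 0.23), the chaperone-like gene Cnpy4 0.41 (SE 0.25), and Tmx4, a membrane-bound thioredoxin, -0.63 (SE 0.27). Map3k5, the kinase ASK1 that acts downstream of IRE1 alpha, stood at 95.3 and 81.9 CPM in knockout libraries, against 134.9 and 151.2 CPM in wild type (log2 -0.69, SE 0.21, edgeR adjusted p 0.390). The groups were apart for Map3k5, with the knockout lower.

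Targets of the PERK and ATF4 branch were ordered differently. Of the 14 tested, 6 had a positive log2 fold change (median -0.02), 0 were called in either direction by edgeR or DESeq2, and at an unadjusted edgeR p 0 were higher and 1 was lower (Atf5), against 6.23% and 5.73% of all genes. Knockout replicate 12 was above knockout replicate 9 for 0 of the 14, against 50.2% of all genes. Knockout replicate 9 was above wild type replicate 1 for 13, against 50.1% of all genes. Ddit3, which encodes the stress factor CHOP, stood at 73.0 and 25.9 CPM in knockout replicates 9 and 12, against 49.95 and 114.5 CPM in wild type replicates 1 and 6 (log2 -0.73, SE 0.57). Atf5 stood at 47.5 and 31.6 CPM in knockout, against 47.9 and 98.0 CPM in wild type (log2 -0.88, SE 0.37, edgeR adjusted p 0.416). Ddit3 and Atf5 were thus lowest in the library with the highest chaperone levels and highest in the library with the lowest. That order held for 5 of the 14 (35.7%, against 20.9% of all genes). Atf4 itself stood at 704.5 and 578.6 CPM in knockout, against 519.8 and 437.1 CPM in wild type (log2 0.42, SE 0.22, edgeR adjusted p 0.440), and the phosphatase subunit gene Ppp1r15a, which ends the PERK signal, had a log2 fold change of 0.07 (SE 0.23).

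Chaperones outside the ER stood higher in the knockout to a similar extent, so the pattern is not shown to be particular to the ER. Of 26 cytosolic and mitochondrial chaperone genes tested, 23 had a positive log2 fold change, with a median of 0.50. None was called by edgeR or DESeq2 in either direction, and at an unadjusted edgeR p 9 were higher (34.6%, against 6.23% of all genes) and 0 lower (against 5.73%). The groups were apart with the knockout higher for 18 of the 26 (69.2%, against 25.4% of all genes), and knockout replicate 9 was above wild type replicate 1 for 20 (76.9%, against 50.1%). For the 35 ER genes that last count was 19 of 35, and the difference between the lists was not tested. Knockout replicate 12 was highest and wild type replicate 6 lowest together for 18 of the 26 (69.2%, against 23.0% of all genes). Their median log2 ratio was 0.11 for knockout replicate 9 over wild type replicate 1 and 0.95 for knockout replicate 12 over wild type replicate 6. Within genotypes it was 0.39 (knockout 12 over 9) and 0.40 (wild type 1 over 6). Hspe1, the mitochondrial co-chaperonin, had the smallest p of that list, at 148.3 and 206.6 CPM in knockout libraries against 111.5 and 85.5 CPM in wild type (log2 0.85, SE 0.26, edgeR adjusted p 0.386).

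**Figure D5:**
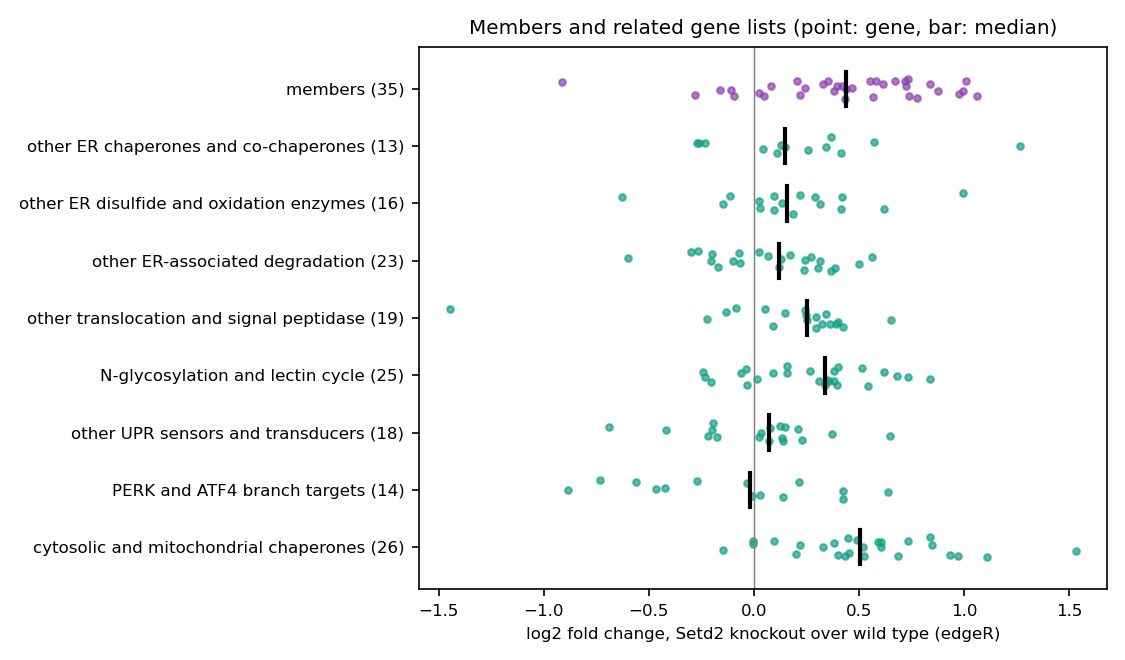
Log2 fold change, Setd2 knockout over wild type, of each tested gene (points) in the set of 35 and in 8 related lists, with black bars at the medians and the number of genes in brackets. The set of 35 (0.44) and the cytosolic and mitochondrial chaperones (0.50) have the highest medians, and the PERK and ATF4 targets (-0.02) the lowest.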

How the data were processed

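RNA-seq was deposited for 4 libraries, 2 per genotype. Bowtie2 and RSEM, with builds GRCm38.p6 and mm10, are named per the submitters' processing notes; their versions are not given in the sources used. The deposited table holds expected counts per gene, of which 29.7% were not whole, and the authors' expression values with no stated unit, taken as FPKM because counts divided by them give a length per gene. The authors' group averages were not used here.

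Expected counts were rounded, filtered with filterByExpr (minimum count 10), scaled by TMM and compared by edgeR 4.0.16 (robust quasi-likelihood F test, two-sided), Benjamini-Hochberg adjusted over 12816 genes (limma 3.58.1, DESeq2 1.42.0, R 4.3.3). The SE was taken from the F statistic. Library ratios used a pseudocount of 0.5 CPM. Replicate numbers are not shared between genotypes, so nothing was paired. Every pair of libraries differed beyond sampling noise (chi-square per degree of freedom at least 30.4). The fits were tested on simulated data with 1 dispersion for all genes. There the edgeR test, at an adjusted p under 0.05, recovered 6% of 100 genes changed 2-fold and 94% of 100 changed 4-fold.

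Members, gene lists and tests were chosen with earlier results of these data known. Genes given by library are the 14 members of smallest p, the sensors, Xbp1 and Hspa5, and from each other list the gene of smallest p, with Atf4, Ddit3 and Ppp1r15a. Library values of Canx, Dnajb9 and Derl3 were added after they were seen. Sequences are from RefSeq, build GRCm38.p6, and coordinates are 1-based. Alternatives were DESeq2, limma-voom, 2 other scalings, 2 other filters, removal of a gene length trend and leaving out each library. One listed marker gene is not reported here.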

Additional observations from a re-analysis of the deposited data

How the results depend on the processing

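No paired analysis was possible because knockout replicates 9 and 12 and wild type replicates 1 and 6 have no number in common. Across the alternatives the median log2 fold change of the 35 genes stayed positive, from 0.17 (without Setd2 knockout replicate 12) to 0.73 (without wild type replicate 1), and fits that left 1 library in a group assume that it varies like the other group. DESeq2 called 1 of the 35 higher, and 89 higher and 97 lower over all genes. Without a filter edgeR called 48 higher and 33 lower over all genes. With a library left out, 0 to 2 of the 35 were called higher (Hsp90b1 and Pdia6 without wild type replicate 1), 1 to 17 were higher and 0 to 1 lower at an unadjusted p (1 without wild type replicate 6, 17 when wild type replicate 1 was left out, 13 without knockout replicate 9, 2 without knockout replicate 12), and 14 to 29 had all knockout libraries above all wild type libraries, which with fewer libraries holds for 34.2% to 40.7% of all genes. Over all genes 0 to 113 were then called higher and 0 to 81 lower, and of the other lists 0 to 3 genes were called higher. The cause was not tested.

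Of 516 log2 fold changes of 47 named genes under the alternatives, 19 changed sign, in 10 genes, none of them called. With library size scaling Edem1 was -0.057, Derl1 -0.031 and Ppp1r15a -0.0080. With the length trend removed Atf6 was 0.20, Eif2ak3 0.041, Sel1l 0.027, Sec61g -0.14 and Ppp1r15a -0.0050. Leave-one-out ranges were -0.25 to 0.086 for Dnajb9, -0.062 to 0.42 for Dnajc3, -0.40 to 0.14 for Eif2ak3, -0.054 to 0.12 for Edem1, -0.042 to 0.12 for Derl1, -0.011 to 0.15 for Derl2, -0.16 to 0.73 for Sec61g and -0.10 to 0.28 for Ppp1r15a. Depth limits Derl3, at 2.17 CPM or less in each library, which the stricter minimum count of 50 removed.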
